A study of Mus musculus with 7 samples.

Results

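MHC class I presentation was examined through 10 genes, chosen by name from the pathway: the heavy chains H2-K1 and H2-D1, their light chain B2m, the peptide loading genes Tap1, Tap2 and Tapbp, the immunoproteasome subunits Psmb8, Psmb9 and Psmb10, and the transactivator Nlrc5. Ensembl identifiers were matched to symbols, and all 10 genes were found among the 22629 rows of the table and passed the filter on low counts, which left 17489 genes for the test. RNA-seq had been done on subcutaneous tumors formed with the mouse pancreatic ductal adenocarcinoma (PDA) line 1242, which comes from a tumor of a genetically engineered mouse in which Pdx1-Cre switches on its engineered alleles in the pancreas.

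The 3 sgScramble tumors (numbers 1, 4 and 5) were formed with line 1242 cells carrying Cas9 and a scrambled control guide. The 4 sgScramble-icOVA tumors (numbers 15, 16, 18 and 2, icOVA tumors hereafter) were formed with such cells that also expressed icOVA, an ovalbumin that stays in the cytoplasm and is induced by doxycycline. Both kinds of cell therefore carried Cas9, the scrambled guide and the engineered alleles of the line, and both were placed under the skin of the flank of C57BL/6 mice for 2 weeks. According to the study's methods, ovalbumin-inducible cells were sorted and cloned from single cells and doxycycline was given in the food from the day of inoculation. The paper also formed tumors of inducible cells without doxycycline and compared their growth and staining. For the RNA-seq it names only sgScramble cells and icOVA-expressing sgScramble cells. Whether the sgScramble cells of these 3 tumors were a clone, carried the ovalbumin vector or grew in doxycycline-fed hosts is therefore not stated. Their OVA counts were 85 to 151, and the source of these was not tested. The methods give a larger inoculum for ovalbumin-inducible tumors than for subcutaneous tumors in general. Ovalbumin, cloning, the vector, doxycycline and the number of cells inoculated therefore cannot be told apart in this comparison. The comparison asks what an exogenous cytoplasmic antigen does to a PDA tumor, here read through the genes that present such antigens.

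Every nucleated cell can display peptides from its own cytoplasm on class I molecules, which are read by CD8+ T cells. Proteasomes cut the protein, the Tap1 and Tap2 transporter carries the peptides into the endoplasmic reticulum, and tapasin, the product of Tapbp, helps to load them on a heavy chain paired with B2m. Interferon-gamma is known to raise most of these genes, in part through Irf1 and Nlrc5, and to exchange the catalytic subunits of the proteasome for those encoded by Psmb8, Psmb9 and Psmb10. Cancer cells, leukocytes and stroma all express the pathway, so in these whole-tumor RNAs more cells of a type that is rich in a transcript and more of that transcript per cell cannot be told apart.

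Total counts were 30904855 to 37510591 per tumor. The OVA transgene checked the labels, with 85 to 151 counts in the sgScramble tumors and 3413 to 10750 counts in the icOVA tumors (a difference of 5.99 on the log2 scale, adjusted p = 0.0143, edgeR quasi-likelihood test with Benjamini-Hochberg adjustment). Epithelial genes of the cancer cells (Krt7, Krt8, Krt18, Krt19, Epcam and Cdh1) summed to 4360 to 4565 CPM (counts relative to the TMM-scaled library size) in sgScramble tumors and 2877 to 4789 CPM in icOVA tumors, with icOVA tumor 18 the lowest, and none of the 6 was called by edgeR, DESeq2 or limma-voom or had an unadjusted p under 0.05. Genes of T cells (Cd3d, Cd3e, Cd3g, Trac, Cd8a and Cd4) summed to 75.3 to 124 CPM and 169 to 264 CPM. In icOVA tumors 5 of the 6 were called higher by edgeR, as were 3.36% of all genes tested, and Cd8a was not (adjusted p = 0.0505, edgeR). DESeq2, which called 8.91% of all genes higher, called all 6. With limma-voom, which called 2.96% higher, all but Cd4 were called. Ptprc, which marks leukocytes, rose from 116 to 175 CPM in sgScramble tumors to 258 to 363 CPM in icOVA tumors (a difference of 1.08 on the log2 scale, adjusted p = 0.0271, edgeR). Macrophage genes (Adgre1, Csf1r, Cd68, C1qa, C1qb and Mrc1) summed to 863 to 1179 CPM and 1178 to 1780 CPM, with a median log2 fold change of 0.58. Of these 6 genes edgeR called 1 higher (Cd68), limma-voom 2 (Csf1r and Cd68) and DESeq2 4 (Csf1r, Cd68, C1qb and Mrc1). An unadjusted p under 0.05 was reached by 5 of them, and by 27.2% of all genes tested (edgeR). Endothelial genes (Pecam1, Cdh5 and Kdr) summed to 131 to 210 CPM and 170 to 408 CPM, with log2 fold changes of 0.83 to 0.87, and all 3 had an unadjusted p under 0.05 and were called by DESeq2 but not by edgeR or limma-voom. Fibroblast genes (Col1a1, Col1a2, Pdgfrb, Dcn and Lum) summed to 4256 to 10590 CPM and 3786 to 23160 CPM, with a median log2 fold change of 0.93, and none of the 5 was called by edgeR, DESeq2 or limma-voom or had an unadjusted p under 0.05. Dendritic cell genes (Flt3, Zbtb46, Xcr1 and Clec9a) summed to 12.5 to 17.2 CPM and 16.3 to 26.1 CPM, with a median of 0.45, and none of the 4 was called by edgeR or limma-voom, while 2 had an unadjusted p under 0.05 and DESeq2 called Flt3. No marker of any list was at 0 in any tumor. The part of these cell types in the values below was not tested.

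The sequences before the start sites show letters that several class I genes share. RefSeq windows on GRCm38.p6 of 250 bases before to 50 after the start were held for 8 of the 10 genes, not for Tap2 and Nlrc5. The 250 bases before the start are given for the heavy chains and B2m, which hold the same pair of boxes, for Tap1, which shares its window with Psmb9, and for Psmb8, the gene that passed the test below. They are chr17:34000348-34000597 on the minus strand for H2-K1 (the first of 2 RefSeq starts), and, on the plus strand, chr17:35262844-35263093 for H2-D1, chr2:122147437-122147686 for B2m, chr17:34187306-34187555 for Tap1 and chr17:34197945-34198194 for Psmb8. Written 5′ to 3′ on the strand of the gene, capitals mark the matches described after them.
H2-K1: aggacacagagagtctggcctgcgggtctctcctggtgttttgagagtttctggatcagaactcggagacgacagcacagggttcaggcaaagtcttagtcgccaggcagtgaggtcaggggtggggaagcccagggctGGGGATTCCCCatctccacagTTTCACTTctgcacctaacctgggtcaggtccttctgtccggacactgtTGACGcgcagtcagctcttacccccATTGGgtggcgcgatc
H2-D1: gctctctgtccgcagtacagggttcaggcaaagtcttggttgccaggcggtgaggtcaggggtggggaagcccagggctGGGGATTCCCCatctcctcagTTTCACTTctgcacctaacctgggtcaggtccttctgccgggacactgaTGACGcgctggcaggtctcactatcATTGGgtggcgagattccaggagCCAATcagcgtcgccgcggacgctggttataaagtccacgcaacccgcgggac
B2m: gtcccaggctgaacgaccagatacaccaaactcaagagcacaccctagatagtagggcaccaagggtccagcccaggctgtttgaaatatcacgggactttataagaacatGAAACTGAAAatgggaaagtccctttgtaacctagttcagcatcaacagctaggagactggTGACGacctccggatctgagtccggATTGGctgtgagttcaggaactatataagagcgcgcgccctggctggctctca
Tap1: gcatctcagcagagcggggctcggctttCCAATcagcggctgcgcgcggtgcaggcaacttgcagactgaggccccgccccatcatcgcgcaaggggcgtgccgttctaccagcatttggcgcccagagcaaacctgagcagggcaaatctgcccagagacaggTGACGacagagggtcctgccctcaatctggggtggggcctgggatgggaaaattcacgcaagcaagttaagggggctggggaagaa
Psmb8: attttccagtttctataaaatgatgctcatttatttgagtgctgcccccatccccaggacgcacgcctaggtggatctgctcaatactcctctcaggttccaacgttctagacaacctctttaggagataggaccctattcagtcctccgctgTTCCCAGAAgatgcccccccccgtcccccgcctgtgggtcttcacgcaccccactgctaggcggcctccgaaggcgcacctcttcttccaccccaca

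The motifs were searched on both strands of the 300-base windows, and shares are of the 32851 RefSeq windows of that length. The NF-kB site that stands first in capitals in the H2-K1 line was searched whole and stood in the H2-K1 and H2-D1 windows and in 0.0304% of all windows (10 windows). The X2 box core TGACG, a CREB-type site, was found in H2-K1, H2-D1, B2m, Tap1 and Psmb9 and in 20.8% of windows. The Y box core ATTGG, the CCAAT site of NF-Y read on the other strand, was found in these 5 and in Tapbp and in 37.4% of windows. In H2-K1, H2-D1 and B2m the first base of the Y core followed the first base of the X2 core by 25 bases, a spacing held by 31 windows in all (0.0944%). That spacing was read from these same 3 genes before all windows were searched, so the share describes it and does not test it. The windows of H2-K1 and H2-D1 are also much alike, so they are not independent matches. The interferon-stimulated response element, written TTTC, NN and TTTC without a gap, was found in B2m and in 3.44% of windows, and its shorter form TTTCNNTT, which that element contains, in H2-K1, H2-D1 and B2m and in 23.9%. The gamma-activated site TTCNNNGAA was found in Psmb8, 1 of the 8 genes, and in 8.3% of windows, which is near that share. Psmb10 had no match to any of the motifs, and Tapbp only Y cores. The H2-K1 and H2-D1 windows were identical at 211 of 239 aligned bases (88.3%). Those of Tap1 and Psmb9, which are read in opposite directions from one region, share 275 bases. The X2 core of Tap1 and that of Psmb9 are the same bases there, as are their Y cores, so they are not separate matches. A match of letters is a description of the window and not evidence of binding.

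All 10 genes had a positive log2 fold change in icOVA against sgScramble tumors, but the differences were small and 1 of the 10, Psmb8, passed the threshold (adjusted p under 0.05, edgeR). Among all genes tested 3.36% were called higher and 2.54% lower, and 49.4% had a positive fold change. The median log2 fold change of the 10 genes was 0.24, against -0.0048 over all genes tested. In 5 of the 10, H2-D1, Tap2, Tapbp, Psmb8 and Psmb9, every icOVA tumor was above every sgScramble tumor, which held for 11.3% of all genes tested, and no gene of the 10 had the opposite separation, which held for 13.3%. DESeq2, which called 8.91% of all genes higher, called 5 of the 10 (Tap1, Tap2, Psmb8, Psmb9 and Nlrc5), and limma-voom, which called 2.96% higher, called Psmb8 alone. An unadjusted p under 0.05 was reached by 6 of the 10 with edgeR, and by 27.2% of all genes in either direction or 13.4% in the higher direction. These directions depend on the scale: with libraries scaled to equal Ptprc all 10 fold changes were negative and 9 of the 10, all but Psmb8, were called lower, as were 80.4% of all genes, whose median was -1.10, above which the 10 genes stood by 0.050 to 0.60. That scaling sets the rise of Ptprc itself, 1.08 on the log2 scale, to 0, so that genes that rose by less turn negative.

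**Figure D1:**
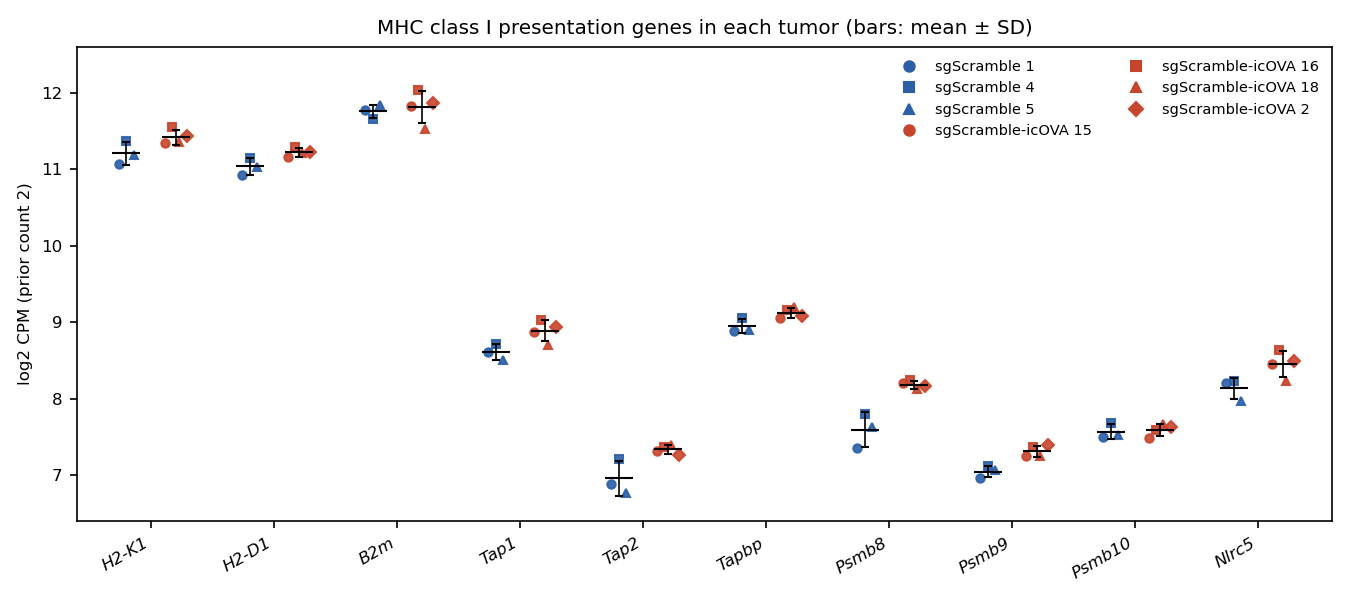
Log2 CPM (prior count of 2) of the 10 genes in each tumor, sgScramble in blue and icOVA in red with 1 symbol per tumor, where horizontal lines are group means and bars are SD (n = 3 and 4). The red symbols lie above the blue ones for Psmb8, from 8.12 to 8.25 against 7.35 to 7.80 on this scale, whereas those of B2m and Psmb10 are intermixed. When libraries are scaled to Ptprc, which sets its own rise of 1.08 to 0, the log2 fold change of Psmb8 is -0.50.

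The classical heavy chains H2-K1 and H2-D1, which carry the peptide to CD8+ T cells, were among the most abundant transcripts of the 10 and differed little between the groups. H2-K1 (chromosome 17 of GRCm38, 33996017 to 34000347, minus strand) had 11.07, 11.36 and 11.19 log2 CPM across sgScramble tumors 1, 4 and 5, against 11.34, 11.55, 11.35 and 11.44 across icOVA tumors 15, 16, 18 and 2. The groups overlapped only through sgScramble tumor 4, which lay just above icOVA tumors 15 and 18. The mean was 2373 ± 248 CPM (SD, n = 3) against 2744 ± 186 CPM (SD, n = 4), and the log2 fold change was 0.21, with a 95% interval from -0.04 to 0.46 and an adjusted p of 0.256 from edgeR. H2-D1 (chromosome 17, 35262730 to 35267499, plus strand) had 10.93, 11.15 and 11.03 log2 CPM in the sgScramble tumors and 11.16, 11.30, 11.21 and 11.22 in the icOVA tumors. The groups did not overlap, by a margin between sgScramble tumor 4 and icOVA tumor 15 that is small beside the spread within either group. Its log2 fold change was 0.18 (95% interval -0.04 to 0.40, adjusted p = 0.253, edgeR).

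Counts of the heavy chains kept nearly 1 ratio to each other, with 1.10 to 1.19 counts of H2-K1 for each count of H2-D1 across the 7 tumors. Of the 76-base windows of the transcripts, 6.81% for H2-D1 and 1.43% for H2-K1 were also present in another gene's transcript. For H2-D1 these were most often in genes without a row in the counts, Gm7030 and H2-T23. For H2-K1 they were most often in genes without a row, H2-D1 and H2-Q6. Single reads of the length sequenced here could thus have been counted for another gene. Summed before the fit, a choice made after seeing the values, the pair had a log2 fold change of 0.20 (adjusted p = 0.287, edgeR). The sum does not address reads shared with genes outside the pair.

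B2m (chromosome 2, 122147686 to 122153083, plus strand), the light chain that every class I heavy chain needs to reach the cell surface, had 11.77, 11.66 and 11.84 log2 CPM in the sgScramble tumors and 11.82, 12.03, 11.53 and 11.87 in the icOVA tumors. Its lowest and highest values over all 7 tumors were both in icOVA tumors, 18 and 16. The means were 3464 ± 215 CPM (SD, n = 3) and 3628 ± 507 CPM (SD, n = 4), with a log2 fold change of 0.07 (95% interval -0.24 to 0.38, adjusted p = 0.779, edgeR), and without icOVA tumor 16 it was -0.0081. The interval allows a difference of either direction. H2-K1 had 0.613 to 0.816 counts for each count of B2m in sgScramble tumors and 0.716 to 0.883 in icOVA tumors, ranges that overlapped.

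The transporter genes Tap1 and Tap2 and the tapasin gene Tapbp, whose products form the peptide loading complex, each had a higher mean in icOVA tumors. None passed the threshold with edgeR or limma-voom. All 3 had an unadjusted p under 0.05 (edgeR), as did 27.2% of all genes tested. DESeq2, which called 8.91% of all genes higher, called Tap1 and Tap2. Tap1 (chromosome 17, 34187553 to 34197225, plus strand) had 8.61, 8.71 and 8.51 log2 CPM in the sgScramble tumors and 8.88, 9.03, 8.70 and 8.94 in the icOVA tumors. icOVA tumor 18 lay just under sgScramble tumor 4, and the other 3 icOVA tumors were above all sgScramble tumors. The log2 fold change was 0.28 (SE 0.096, adjusted p = 0.116, edgeR). Tap2 (chromosome 17, 34203527 to 34216321, plus strand) had 6.89, 7.21 and 6.77 log2 CPM in the sgScramble tumors and 7.31, 7.37, 7.39 and 7.26 in the icOVA tumors. Its icOVA tumors were closely grouped and all above the sgScramble tumors, of which tumor 4 was the nearest. The means were 125 ± 20.4 CPM (SD, n = 3) and 162 ± 6.57 CPM (SD, n = 4), and the log2 fold change was 0.37 (SE 0.11, adjusted p = 0.0824, edgeR), or 0.51 without sgScramble tumor 4 (adjusted p = 0.0212, with 4.82% of all genes called higher). Tapbp (chromosome 17, 33915899 to 33929292, plus strand) had 8.89, 9.05 and 8.90 log2 CPM in the sgScramble tumors and 9.05, 9.16, 9.20 and 9.09 in the icOVA tumors, and its log2 fold change was 0.18, with an SE of 0.077 and an adjusted p of 0.182 from edgeR. Its groups met at sgScramble tumor 4 and icOVA tumor 15, which agree to 2 decimals. Tapbp overlaps Zbtb22 on the same strand for 3422 bases in the annotation, but Zbtb22 had 714 to 968 counts against 14894 to 20398 for Tapbp.

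The subunits of the immunoproteasome did not move as 1 block. Psmb8 rose in icOVA tumors by 0.58 on the log2 scale, a fold of 1.49. This turned to -0.50 on the log2 scale when libraries were scaled to Ptprc, which sets the larger rise of Ptprc itself (1.08) to 0. Psmb9 had 0.27, with no overlap but an adjusted p of 0.0623, and Psmb10 had 0.03 (edgeR). The difference between the subunits' fold changes was not itself tested.

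Psmb8 (chromosome 17, 34197721 to 34201454, plus strand) encodes the subunit that takes the place of that of Psmb5 and cuts after hydrophobic residues. It had 7.35, 7.80 and 7.63 log2 CPM across sgScramble tumors 1, 4 and 5, against 8.21, 8.25, 8.12 and 8.16 across icOVA tumors 15, 16, 18 and 2. The icOVA tumors lay within a narrow band above all sgScramble tumors, and sgScramble tumor 1 was the lowest. In CPM the means were 195 ± 30.04 (SD, n = 3) and 291 ± 10.6 (SD, n = 4), and the log2 fold change of 0.58 had an SE of 0.11, a 95% interval from 0.33 to 0.83 and an adjusted p of 0.0314 from edgeR. The call was lost when any of 4 tumors was left out. The adjusted p was 0.119 without sgScramble tumor 1, 0.146 without sgScramble tumor 5, 0.0925 without icOVA tumor 15 and 0.0722 without icOVA tumor 2, with log2 fold changes of 0.47, 0.59, 0.58 and 0.59 (edgeR). With the first, the second or the third of these left out, no gene of the whole table was called by edgeR (3087, 2936 and 3415 had an unadjusted p under 0.05), and with the fourth left out 6 genes were higher (0.0347%) and 2 lower (0.0116%).

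Psmb9 (chromosome 17, 34181987 to 34187764, minus strand), whose subunit replaces that of Psmb6, had 6.96, 7.11 and 7.06 log2 CPM in the sgScramble tumors and 7.26, 7.36, 7.25 and 7.39 in the icOVA tumors. All icOVA tumors were above all sgScramble tumors, and the spread within each group was small (132 ± 6.97 CPM, SD, n = 3, against 159 ± 7.95 CPM, SD, n = 4). Its log2 fold change was 0.27 with a 95% interval from 0.11 to 0.43. Psmb9 and Tap1 lie back to back and their annotations overlap on opposite strands for 212 bases, and whether the counting used strand is not given in the sources used here. Psmb10 (chromosome 8, 105935735 to 105938444, minus strand), whose subunit replaces that of Psmb7, had 7.50, 7.68 and 7.52 log2 CPM in the sgScramble tumors and 7.49, 7.59, 7.67 and 7.63 in the icOVA tumors. The groups were intermixed, and the log2 fold change of 0.03 had a 95% interval from -0.14 to 0.20 (adjusted p = 0.825, edgeR). Without sgScramble tumor 1 it was -0.00091.

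Ratios of each immunoproteasome subunit to the constitutive subunit it replaces do not depend on how the libraries are scaled. The log2 ratio of Psmb8 to Psmb5 counts was 1.51, 1.68 and 1.56 in the sgScramble tumors and 2.27, 2.18, 1.89 and 2.07 in the icOVA tumors. The groups did not overlap, and the means of 1.58 ± 0.089 (SD, n = 3) and 2.10 ± 0.16 (SD, n = 4) differed by 0.52. The log2 ratio of Psmb9 to Psmb6 was -0.11, 0.016 and -0.099 in the sgScramble tumors and 0.35, 0.35, 0.18 and 0.33 in the icOVA tumors, so that Psmb9 had more counts than Psmb6 in all icOVA tumors and in sgScramble tumor 4. The means differed by 0.37 with no overlap. Both ratios gave p = 0.0571 in an exact two-sided permutation test, the smallest p that 3 against 4 tumors allow, and 0.0857 after Benjamini-Hochberg adjustment over the 3 ratios, so this design could not bring them under 0.05. The log2 ratio of Psmb10 to Psmb7 was 0.90, 1.08 and 0.78 in the sgScramble tumors and 0.78, 0.88, 1.02 and 0.83 in the icOVA tumors, a difference of -0.042 (exact p = 0.571), and the groups overlapped. Psmb5 is uncertain as a denominator, since 39.3% of the 76-base windows of its transcript are also found in another gene, while Psmb6, Psmb7, Psmb8, Psmb9 and Psmb10 share none.

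**Figure D2:**
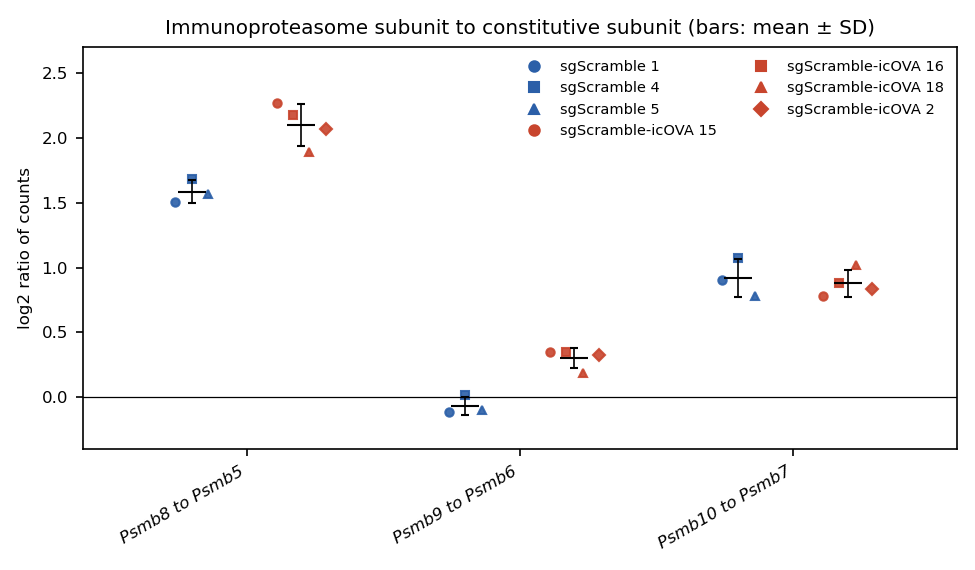
Log2 ratio of the counts of each immunoproteasome subunit to the constitutive subunit that it replaces, 1 symbol per tumor, with group means (horizontal lines) and SD (bars, n = 3 and 4). The icOVA tumors lie above the sgScramble tumors for Psmb8 to Psmb5 (1.89 to 2.27 against 1.51 to 1.68) and Psmb9 to Psmb6 (0.18 to 0.35 against -0.11 to 0.016) and among them for Psmb10 to Psmb7.

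The constitutive core of the proteasome gave the setting for these subunits. Of its 14 genes (Psma1 to Psma7 and Psmb1 to Psmb7) none was called in either direction by edgeR or limma-voom and 1 by DESeq2 (Psma1, higher), 2 had an unadjusted p under 0.05, and the median log2 fold change was 0.065. Psmb5, Psmb6 and Psmb7 had 0.07, -0.10 and 0.07 (adjusted p = 0.651, 0.347 and 0.516, edgeR), and every icOVA tumor was below every sgScramble tumor for Psmb6, the denominator of the Psmb9 ratio. Of the genes of the PA28 activator, a cap that opens the core, Psme2 had 0.27 with no overlap between groups (adjusted p = 0.0667, edgeR) and its partner Psme1 had -0.05 with overlap (adjusted p = 0.71, edgeR). Psme3, the nuclear form, had 0.14, with no overlap (adjusted p = 0.203, edgeR). None of the 3 was called by edgeR or limma-voom, while DESeq2 called Psme2, the 1 gene with an unadjusted p under 0.05. Beside these counts, DESeq2 called 8.91% of all genes higher, and 27.2% had an unadjusted p under 0.05 (edgeR). Every icOVA tumor was above every sgScramble tumor in 11.3% of all genes tested, and below in 13.3%.

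Nlrc5 (chromosome 8, 94434356 to 94527272, plus strand), which lacks a DNA-binding domain of its own and acts on the X and Y boxes of class I promoters through the RFX, CREB and NF-Y proteins, had 8.20, 8.23 and 7.97 log2 CPM in the sgScramble tumors and 8.45, 8.64, 8.23 and 8.49 in the icOVA tumors. icOVA tumor 18 was level with sgScramble tumors 1 and 4, and the other 3 icOVA tumors were above all sgScramble tumors. The means were 282 ± 26.4 CPM (SD, n = 3) and 352 ± 40.9 CPM (SD, n = 4), and the log2 fold change was 0.32 (SE 0.11, 95% interval 0.06 to 0.58, adjusted p = 0.122, edgeR). Of 11 regulators of class I genes none was called by edgeR or limma-voom, and the median log2 fold change was 0.0078. DESeq2 called Creb1 higher and Rfxank lower, where it called 8.91% of all genes higher and 7.31% lower. An unadjusted p under 0.05 was found for 4 of the 11, and for 27.2% of all genes tested (edgeR). Irf1, a transcription factor that relays interferon signals, had 0.30 (adjusted p = 0.182, edgeR), with icOVA tumor 18 among the sgScramble tumors. Rfxank, a subunit of RFX, had -0.31 with every icOVA tumor below every sgScramble tumor (adjusted p = 0.0924, edgeR), and its partners Rfx5 and Rfxap had -0.02 and -0.12. Creb1, which binds the X2 box, had 0.18 and Nfkb1, a subunit of NF-kB, had 0.15, both with no overlap (adjusted p = 0.110 and 0.183, edgeR). Such a separation held for 11.3% of all genes tested, and the opposite one, that of Rfxank, for 13.3%. The NF-Y genes Nfya, Nfyb and Nfyc had 0.01, 0.00 and 0.10.

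Genes that fold, trim and edit the peptide cargo, most of them acting in the endoplasmic reticulum, had small fold changes. None of 8 was called by edgeR or limma-voom and 1 by DESeq2 (Lnpep), which called 8.91% of all genes higher. An unadjusted p under 0.05 was reached by 1, and by 27.2% of all genes tested (edgeR). The median log2 fold change was 0.075. Erap1, the aminopeptidase that trims peptides to the length class I molecules hold, had 0.18 (adjusted p = 0.251, edgeR), and its icOVA tumor 18 was level with the lowest sgScramble tumors. Lnpep, an aminopeptidase of endosomes, had 0.31 (adjusted p = 0.103, edgeR), with the only separation and the only unadjusted p under 0.05 among the 8. That separation held for 11.3% of all genes tested. The chaperones Calr, Canx and Pdia3 had 0.07, 0.06 and 0.02.

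**Figure D3:**
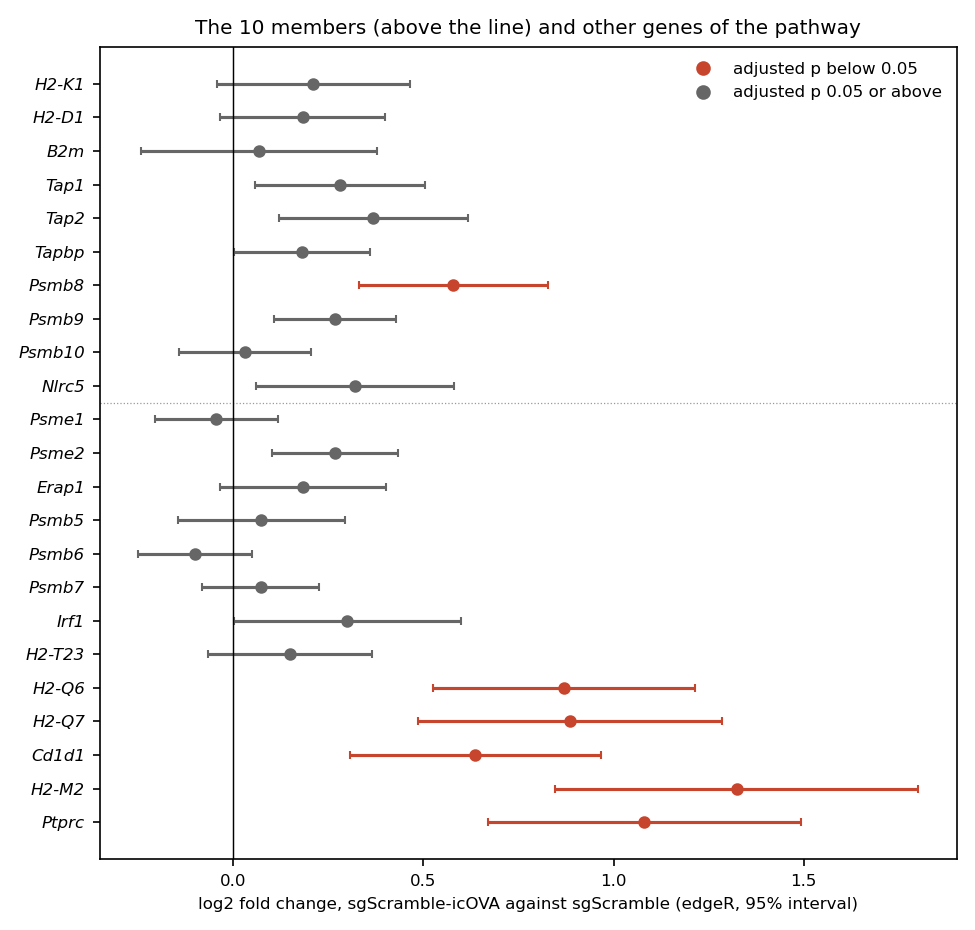
Log2 fold change of icOVA against sgScramble tumors (points) with 95% intervals (lines) from edgeR, for the 10 genes above the dotted line and other pathway genes and Ptprc below it, with genes past the threshold in red. On this scale Psmb8 alone of the 10 is red, at 0.58, while H2-Q6, H2-Q7, Cd1d1 and H2-M2 reach 0.64 to 1.32. When libraries are scaled to Ptprc, which sets its own rise of 1.08 to 0, the points of Psmb8, H2-Q6, H2-Q7 and Cd1d1 turn negative.

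Several non-classical class I genes had larger fold changes than the classical heavy chains, a difference that was not itself tested. Of 16 listed, 13 were tested, 4 were called higher by edgeR (3.36% of all genes tested), 3 by limma-voom (2.96%), which did not call Cd1d1, and 7 by DESeq2 (8.91%), 7 had no overlap with all icOVA tumors above (11.3%), and the median log2 fold change was 0.31. The H2-Q7 and H2-Q6 genes encode Qa-2 antigens, which pair with B2m. H2-Q7 had 7.50, 8.22 and 7.61 log2 CPM in the sgScramble tumors and 8.69, 8.59, 8.81 and 8.69 in the icOVA tumors, and rose by 0.89 on the log2 scale (SE 0.17, adjusted p = 0.0343, edgeR), or -0.17 when scaled to Ptprc. H2-Q6 had 6.99, 7.62 and 7.10 log2 CPM and 8.13, 8.10, 8.11 and 8.19 log2 CPM, and rose by 0.87 (SE 0.15, adjusted p = 0.0271, edgeR), or -0.18 when scaled to Ptprc. In both, sgScramble tumor 4 stood apart from the other 2 and nearest to the icOVA tumors. Of the 76-base windows of the transcripts, 27.1% for H2-Q7 and 17.4% for H2-Q6 also occur in another gene, most often in each other, so how reads were divided between them is uncertain. Summed, a choice made after seeing the values, they had 0.88 (adjusted p = 0.0314, edgeR). For each count of H2-K1 there were 0.0837 to 0.113 counts of H2-Q7 in sgScramble tumors and 0.128 to 0.172 in icOVA tumors, with no overlap.

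H2-M2 rose from 1.07, 1.60 and 0.98 to 2.36, 2.55, 2.75 and 2.51 log2 CPM, a low level of 60 to 232 counts per tumor (log2 fold change 1.32, SE 0.21, adjusted p = 0.0249, edgeR), and still had 0.28 when scaled to Ptprc (adjusted p = 0.403). Cd1d1, which presents lipids to natural killer T cells, rose from 4.14, 4.43 and 4.29 to 4.96, 4.79, 4.68 and 5.22 log2 CPM (log2 fold change 0.64, SE 0.14, adjusted p = 0.0443, edgeR, and 0.0518 with limma-voom), or -0.44 when scaled to Ptprc. All 4 calls were lost without sgScramble tumor 1 or 5 or icOVA tumor 15 or 2, with adjusted p up to 0.181 for Cd1d1 and up to 0.162, 0.138 and 0.126 for H2-Q7, H2-Q6 and H2-M2 (edgeR). H2-Q10, H2-T24 and H2-M3 also had no overlap, with log2 fold changes of 0.67, 0.96 and 0.23 and adjusted p of 0.110, 0.0505 and 0.109 (edgeR). H2-T23, which encodes the Qa-1 heavy chain that carries leader peptides of other class I molecules to NK receptors, had 0.15 (adjusted p = 0.333, edgeR), with overlap. The other tested genes also overlapped. H2-Q4, H2-T22 and H2-T10 had 0.31, 0.22 and 0.05, and Mr1 and H2-M5 had -0.03 and -0.34. H2-Q2 and H2-T3 were under the filter on low counts, and H2-Q1 had no row.

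**Figure D4:**
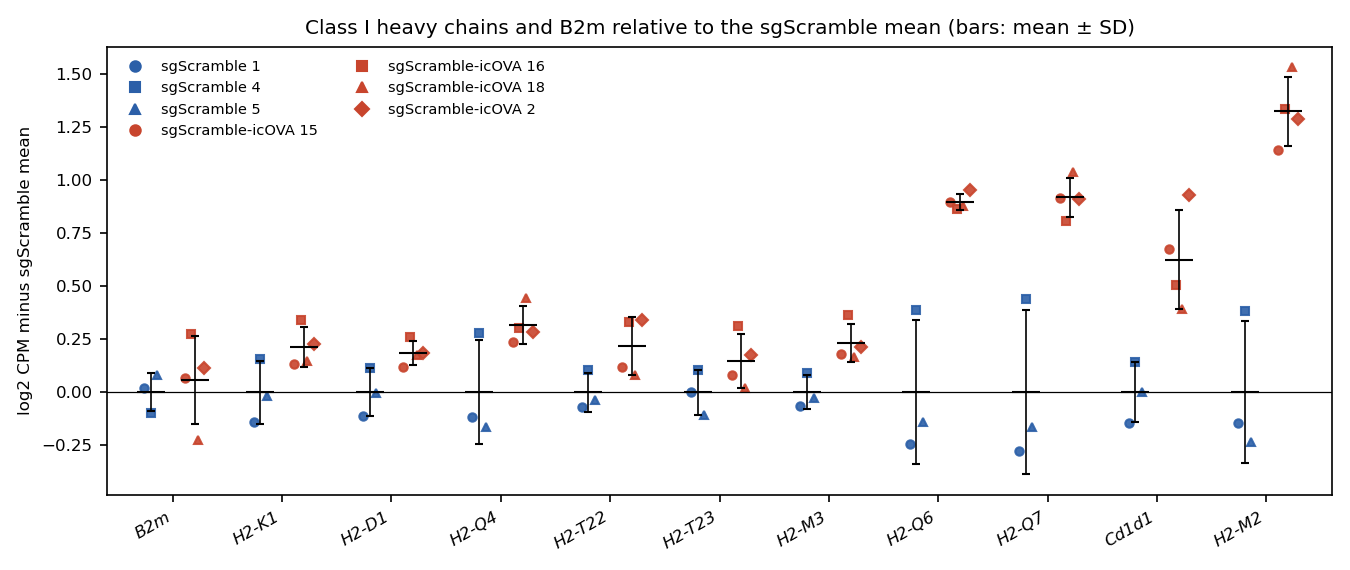
Log2 CPM minus the mean of the sgScramble tumors for B2m, the classical heavy chains and some of the tested non-classical ones, 1 symbol per tumor, with group means (horizontal lines) and SD (bars, n = 3 and 4). H2-Q10, H2-T10, H2-T24, H2-M5 and Mr1 are not shown. The red symbols lie clear of the blue ones for H2-Q6, H2-Q7, Cd1d1 and H2-M2, with log2 fold changes of 0.64 to 1.32, and mix with them for B2m and H2-K1, at 0.07 and 0.21. With libraries scaled to Ptprc, which sets its own rise of 1.08 to 0, the fold changes of all of these but H2-M2 turn negative.

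The neighbours of these genes on the chromosome differed in both directions, with more of them higher than lower in icOVA tumors. Of the 10 genes 6 lie on chromosome 17 between and including H2-K1 and H2-D1 (33996017 to 35267499, 1.27 Mb), and Tapbp lies just before them. Of the other genes in that interval, 8 MHC class II genes included, 75 were tested. By edgeR 7 were called higher and 2 lower, against 3.36% and 2.54% of all genes tested. Every icOVA tumor was above every sgScramble tumor in 17 and below in 6, which held for 11.3% and 13.3% of all genes. The median log2 fold change was 0.077.

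Levels of different genes were compared per kilobase of the transcript with the longest coding sequence, as log2 CPM per kb. In the sgScramble tumors B2m was highest at 11.97 ± 0.091 (SD, n = 3), followed by H2-K1 at 10.51 ± 0.15 and H2-D1 at 9.97 ± 0.11. Tapbp (7.41 ± 0.091), Psmb10 (7.17 ± 0.098), Tap1 (7.05 ± 0.0996) and Psmb8 (6.89 ± 0.23) came next, and neighbours in that order from Psmb10 on overlapped in their 3 tumors. Psmb9 stood at 6.61 ± 0.077 and overlapped Psmb8, and Nlrc5 (5.21 ± 0.14) and Tap2 (5.17 ± 0.23) were the lowest and did not differ beyond their spread. In icOVA tumors Psmb8 (7.48 ± 0.053, SD, n = 4) lay above Tap1 (7.33 ± 0.14) and Psmb10 (7.20 ± 0.078), which it lay below in sgScramble tumors, with overlap with Tap1 and none with Psmb10, while B2m, H2-K1 and H2-D1 kept their order at 12.03, 10.72 and 10.15. Tap1 had 2.48 to 3.34 counts for each count of Tap2 across the tumors. These levels depend on the transcript chosen, and over all annotated exons Psmb8 had 6.43 log2 CPM per kb in icOVA tumors, level with Tap1 at 6.44 and below Psmb10 at 6.83, and H2-K1 and H2-D1 were level at 9.65 and 9.67 in sgScramble tumors.

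The tumors differed among themselves in a way that many of the 10 genes shared. In sgScramble tumors the highest value was in tumor 4 for 9 of the 10 genes, all but B2m, and the lowest in tumor 1 for 6. In icOVA tumors the highest was in tumor 16 for 6 genes, in tumor 18 for 3 and in tumor 2 for 1, and the lowest in tumor 18 for 5 and in tumor 15 for 4. With each gene centred on its mean over tumors, the average of the 10 genes was -0.21, -0.031 and -0.19 across sgScramble tumors 1, 4 and 5, against 0.069, 0.20, 0.038 and 0.12 across icOVA tumors 15, 16, 18 and 2. sgScramble tumor 4 also had the highest sums of T cell genes (124 CPM), Ptprc (175 CPM) and macrophage genes (1179 CPM) among the sgScramble tumors. Its fibroblast (10590 CPM), endothelial (210 CPM) and dendritic cell (17.2 CPM) sums were the highest of these tumors too, and its epithelial sum (4360 CPM) was the lowest. Among the icOVA tumors, tumor 16 had the lowest T cell sum (169 CPM), Ptprc (258 CPM) and macrophage sum (1178 CPM) and the most OVA counts (10750). Its fibroblast (3786 CPM), endothelial (170 CPM) and dendritic cell (16.3 CPM) sums were also the lowest of these tumors, and its epithelial sum (4789 CPM) was the highest. Tumor 18 had the fewest OVA counts (3413), the lowest epithelial sum (2877 CPM) and the highest fibroblast (23160 CPM), macrophage (1780 CPM), endothelial (408 CPM) and dendritic cell (26.1 CPM) sums. Tumor 18 was the lowest icOVA tumor for B2m, Tap1, Psmb8, Psmb9 and Nlrc5 and the highest for Tap2, Tapbp and Psmb10. The part of these cell types in the order of the tumors was not tested.

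The genes whose course over the 7 tumors was most like the average of the 10, measured by the mean absolute difference of centred log2 CPM, were Abcb10 (0.0259), Nadk (0.0322), Rnf149 (0.0360), Foxk2 (0.0370) and Actg1 (0.0381). None of these 5 passed the threshold. Of the 10 genes, Psmb9 (0.0361) and H2-K1 (0.0387) were nearest to their own average, and Psmb8 (0.166), B2m (0.135) and Psmb10 (0.121) were farthest from it.

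Other antigen presentation and interferon genes were read beside the 10 by their counts and medians. The MHC class II genes, which present peptides taken up from outside and mark dendritic cells, B cells and macrophages, had 1 of 10 called higher, H2-DMa (log2 fold change 0.35, adjusted p = 0.0493, edgeR), where 3.36% of all genes tested were, and 6 of 10 with no overlap, where 11.3% of all genes were, and a median of 0.37. In this list limma-voom called none, with 6 at an unadjusted p under 0.05 in edgeR, and DESeq2 called 5, H2-Aa, H2-Ab1, H2-Eb1, H2-DMa and Cd74. Over all genes limma-voom called 2.96% higher and DESeq2 8.91%, and 27.2% had an unadjusted p under 0.05 in edgeR. The interferon-inducible GTPases, which interferon-gamma is known to raise, had 1 of 12 called higher, Gbp4 (0.76, adjusted p = 0.0469, edgeR), 1 of 12 with no overlap, both beside the same shares of all genes, and a median of 0.26, and limma-voom called Gbp4 and DESeq2 Gbp4 and Gbp7. The genes known to respond to type I interferon had 4 of 12 called higher, with Mx1 at 1.06, Rsad2 at 0.94, Ifit2 at 0.39 and Irf7 at 0.36 (adjusted p = 0.0258, 0.0284, 0.0374 and 0.0314, edgeR), 4 of 12 with no overlap and a median of 0.28, and limma-voom and DESeq2 called the same 4. No gene of these 3 lists was called lower.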

How the data were processed

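RNA of 7 mouse tumors, 3 sgScramble and 4 sgScramble-icOVA, was sequenced with single reads of 76 bases after a TruSeq preparation. The authors deposited raw counts of reads per gene, whole numbers without normalization, in 22629 rows. The submitters' processing notes name the build mm10, and the aligner, counting tool, annotation, filters and use of strand are not given in the sources used here. The labels call the RNA polyA, whereas the study's methods name a total RNA kit. Identifiers were matched to GENCODE M21 on GRCm38 (22414 with a symbol), and coordinates are from M21.

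Counts were tested with edgeR 4.0.16 in R 4.3.3 (filterByExpr with minimum count 10 and minimum total 15, TMM, quasi-likelihood test, no covariates), and p values were adjusted over 17489 genes by the Benjamini-Hochberg method. CPM use TMM-scaled library sizes, and log2 CPM a prior count of 2. Intervals are 95% intervals of the fit. For ratios of counts, the exact permutation test of scipy 1.17.1 (two-sided) was used. Shared 76-base windows were searched in the M21 transcripts, and the fit was tested on simulated data. Each library of a group is a separate tumor by its labels, which do not say whether tumors came from separate mice, so that p values measure the spread between these tumors, and the counts of every pair differed beyond sampling noise. Total counts of 30904855 to 37510591 give every one of the 10 genes at least 3411 counts per tumor, so that the number of tumors limits the precision.

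The 10 genes and the lists were chosen with earlier results of these data known. Named genes are the 10, genes of the pathway lists that passed the threshold or did not overlap between groups, fixed examples (Psmb5, Psmb6, Psmb7, Erap1, Psme1, Psme2, Irf1, H2-T23 and H2-Q7), OVA and Ptprc, and the 5 genes most like the 10. A further example gene of the rule is not reported here. Genes of the lists outside this rule were named after their values were seen. Alternatives were total counts, RLE, upper quartile, scaling to Ptprc or Tbp, other filters, robust dispersion, DESeq2 1.42.0, limma-voom (limma 3.58.1), 5 counts added to the ratios and leaving out each tumor. The sums of H2-Q6 with H2-Q7 and of H2-K1 with H2-D1, and the alternatives for the 4 called non-classical genes, were added after seeing the data.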

Additional observations from a re-analysis of the deposited data

Results flagged for a closer look

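Among the 4 icOVA tumors, tumor 18 had a log2 ratio of Psmb9 to Psmb6 counts of 0.1848, far from the other 3 at 0.33, 0.35 and 0.35. Its gap to the nearest of them was 0.849 of the whole range, which exceeds what Dixon's test allows for 4 samples. Of 27 values examined in this way 1 stood out, where chance gives 1.35. Tumor 18 had the fewest OVA counts of the icOVA tumors (3413) and the lowest sum of epithelial genes (2877 CPM). It also had the highest sums of fibroblast (23160 CPM), macrophage (1780 CPM), endothelial (408 CPM) and dendritic cell genes (26.1 CPM). The part of these differences in the ratio was not tested. Without tumor 18 the groups differed by 0.41 in this ratio, against 0.37 with all tumors.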

How the results depend on the processing

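Over all alternatives that kept the 7 tumors, 88 of 102 values for the 10 genes kept their direction and their side of the threshold, 4 gained a call and 10 were reversed. All 10 reversals came from scaling to Ptprc, whose own change is set to 0 there: the log2 fold changes were -0.86 (H2-K1), -0.90 (H2-D1), -1.03 (B2m), -0.79 (Tap1), -0.70 (Tap2), -0.90 (Tapbp), -0.50 (Psmb8), -0.82 (Psmb9), -1.05 (Psmb10) and -0.75 (Nlrc5), with a median of -0.84, 0 of the 10 called higher and 9 lower, and 70 genes called higher and 14053 lower in the whole table, 14301 having an unadjusted p under 0.05. H2-Q6, H2-Q7 and Cd1d1 had -0.18, -0.17 and -0.44 there. Scaling to Tbp gave 199 genes called lower against 444. DESeq2 called 5 of the 10 higher, and 1558 genes higher (588 with edgeR) and 1278 lower (444 with edgeR), and the cause was not tested.

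When 1 tumor at a time was left out, 63 of 70 values for the 10 genes were unchanged in direction and call, 4 lost a call, 1 gained one and 2 were reversed. The number of the 10 called higher ranged from 0 to 2 and the number called lower was 0 throughout, with 3 to 7 at an unadjusted p under 0.05. Genes called in the whole table ranged from 0 to 1014 higher and from 0 to 716 lower. Reversals were those of B2m, whose log2 fold change ranged from -0.0081 to 0.15, of Psmb10, from -0.00091 to 0.096, and of the ratio of Psmb10 to Psmb7, from -0.11 to 0.036. The median of the 10 ranged from 0.19 to 0.30, the difference in the ratio of Psmb8 to Psmb5 from 0.46 to 0.59 and that of Psmb9 to Psmb6 from 0.34 to 0.41. OVA had log2 fold changes from 5.75 to 6.25, and its adjusted p from 0.00118 to 0.111. No paired analysis was possible because no tumor number occurs in both groups. Whole-tumor RNA, 3 against 4 tumors, and 1 cell line limit what these values show.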
